A study of Mus musculus with 24 samples.

Results

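The 10 genes described here are the standard working genes of the resting astrocyte, and they were followed in the frontal cortex of mice whose astrocytes make the cytokine interleukin-6. They are Slc1a2, Slc1a3, Glul, Aqp4, Kcnj10, Gja1, Gjb6, Aldh1l1, S100b and Aldoc. All were chosen by symbol for their known roles, with earlier results of these data already known. Each of the 10 symbols was found on 1 row of the 33000 genes counted, and all 10 passed the filter on low counts in every comparison. The mice were 3 wild-type C57BL/6 animals (WT) and 3 homozygous GFAP-IL6 animals, all 3 months old, and the labels name no treatment of either group. In the GFAP-IL6 line the GFAP promoter drives an Il6 transgene, so its expression starts in astrocytes and follows the activity of that promoter. RNA of each mouse gave 4 libraries by 3'Pool-seq, a method that reads the 3' ends of polyadenylated RNA, with either 2 ng or 1 ng of cDNA put into tagmentation, once in a set named A and once in a set named B. How sets A and B differ is not given in the labels.

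Astrocytes keep the space around neurons in order. They take up released glutamate and turn it into glutamine, clear potassium, pass water at their end-feet on blood vessels, and share ions and metabolites through gap junctions. In inflammation they become reactive, a state marked by Gfap, the intermediate filament protein of astrocytes, and interleukin-6 acts on them through the transcription factor STAT3.

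Depth did not limit the detection of these genes. Libraries held 1524165 to 12256374 counted reads, and after the 4 libraries of each mouse were summed, the mice held 7852743 to 37582644. The lowest count of any of the 10 genes in any library was 63. No pair of libraries held identical counts. The mouse was the replicate (n = 3 per genotype), because its 4 libraries came from the same RNA. Levels are CPM, a gene's share of the counted reads on the usual per-million scale, after TMM scaling, and differences are log2 fold changes of GFAP-IL6 over WT from edgeR's quasi-likelihood test, with Benjamini-Hochberg adjusted p-values over all genes tested. A gene is called at an adjusted p under 0.05. The genotype labels were borne out by Il6 itself, which had 5, 3 and 0 counts in the WT mice and 30, 33 and 163 in the GFAP-IL6 mice. The library labels place the tissue in frontal cortex, and the excitatory neuron transporter gene Slc17a7 was at 95.7 to 123 CPM in all 6 mice. The third WT mouse stood apart in Ttr, a choroid plexus gene, with 4038 CPM against 74.6 to 743 CPM in the other mice. Without this mouse 0 of the 10 genes were called, as with it, beside 246 of all 15050 genes tested. That fit holds fewer mice, so the unchanged count does not show that this mouse had no part. The median log2 fold change of the 10 genes was 0.17 without this mouse and 0.13 with it.

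None of the 10 homeostatic genes was called between genotypes in the summed libraries, while Gfap rose 5.49-fold in the same mice. Gfap was at 20.3, 23.5 and 16.0 CPM in the WT mice and at 80.9, 102 and 146 CPM in the GFAP-IL6 mice, a log2 fold change of 2.44 (SE 0.18, edgeR adjusted p = 1.59e-06). For the homeostatic genes the log2 fold changes ran from -0.10 for Aldh1l1 to 0.52 for Aqp4. With edgeR, 0 of 10 were called in either direction and 2 had an unadjusted p under 0.05. No share of all genes under that unadjusted threshold is given. Such unadjusted counts, here and below, therefore stand without a background. Over all 14621 genes tested, 1.74% were called higher and 0.0547% lower. DESeq2 called 1 gene, Aqp4, and 2.07% of all genes, and limma-voom on the 24 libraries called 4, Slc1a2, Aqp4, Gja1 and Aldoc, and 4.82% of all genes. The estimate was above 0 for 8 of the 10 genes and below 0 for 2, with a median of 0.13, against a median of -0.01 and 48.1% above 0 over all genes tested. Among the 4461 tested genes at or above the level of the lowest of the 10, the median was -0.03. As a share of all counts the 10 genes took 0.359% to 0.367% in the WT mice and 0.396% to 0.414% in the GFAP-IL6 mice. This share rests largely on Aldoc. It was at 1599 to 1754 of a summed 3627 to 3733 CPM in WT, and 1827 to 2001 of 3921 to 4116 CPM in GFAP-IL6. In bulk tissue, a change in the number of astrocytes and a change in RNA per astrocyte cannot be told apart.

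**Figure D1:**
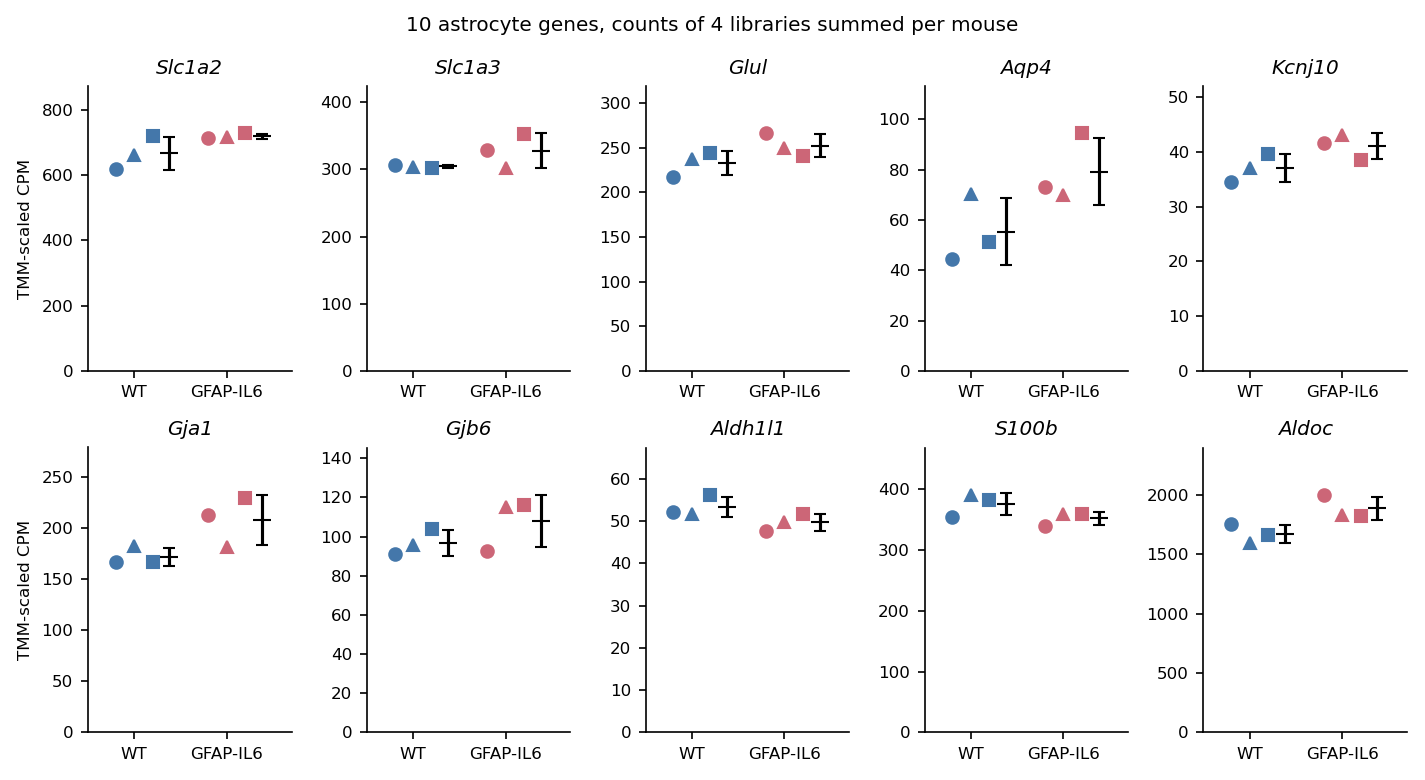
TMM-scaled CPM of the 10 genes in each of 3 WT (blue) and 3 GFAP-IL6 (red) mice, with the counts of 4 libraries summed per mouse; black bars give the mean and SD of each genotype, and each linear axis starts at 0. The genotypes overlap for 8 genes, while Aldoc is higher and Aldh1l1 lower in every GFAP-IL6 mouse.

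None of the 3 glutamate handling genes was called, and their RNA estimates were all slightly above 0. Slc1a2, which encodes the main glutamate transporter of the forebrain (GLT-1), was at 620, 661 and 720 CPM in the WT mice and 713, 716 and 728 CPM in the GFAP-IL6 mice. The third WT mouse reached the GFAP-IL6 values, so the genotypes overlapped, and the log2 fold change was 0.11 (SE 0.08, 95% interval -0.07 to 0.29, edgeR adjusted p = 0.818). Slc1a3, the gene of the second astrocyte glutamate transporter (GLAST), was at 307, 303 and 302 CPM in WT and 328, 302 and 353 CPM in GFAP-IL6. Its WT mice lay close together (SD 2.33 CPM), whereas the GFAP-IL6 mice were spread more widely (SD 25.7 CPM), and 1 of them was below all WT mice. The log2 fold change of Slc1a3 was 0.11 (SE 0.08, interval -0.07 to 0.29). Glul, which encodes glutamine synthetase, the enzyme that turns glutamate into glutamine, was at 217, 237 and 243 CPM in WT and 266, 250 and 241 CPM in GFAP-IL6. Here too 1 GFAP-IL6 mouse fell inside the WT range, and the log2 fold change was 0.12 (SE 0.08, interval -0.06 to 0.29, edgeR adjusted p = 0.785). On the linear scale the 95% intervals of these 3 genes reached from 0.951-fold to 1.23-fold of the WT level.

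Water and potassium handling held the gene with the largest difference. Aqp4, on the reverse strand at chr18:15389496-15410982 (mm10), encodes the water channel of astrocyte end-feet. It was at 44.4, 70.2 and 51.4 CPM in the WT mice and at 73.3, 70.1 and 94.4 CPM in the GFAP-IL6 mice. The second WT mouse and the second GFAP-IL6 mouse had nearly the same level, and the other mice were apart by genotype. The log2 fold change was 0.52 (SE 0.15, interval 0.20 to 0.84), or 1.43-fold, with an unadjusted p of 0.0035 and an adjusted p of 0.134 in edgeR. By an exact permutation test over the 6 mice (two-sided) p was 0.2, where 0.1 is the smallest this design allows. Whether Aqp4 passed depended on the method and on 1 mouse. It was called with DESeq2 (log2 0.51, adjusted p = 0.0447), with limma-voom on the 24 libraries (log2 0.58, adjusted p = 0.000164), without a filter on low counts in edgeR (adjusted p = 3.43e-05), and in edgeR without the second WT mouse (log2 0.74, adjusted p = 0.0141). Over all alternatives its adjusted p ran from 3.43e-05 to 0.737 and its log2 fold change from 0.37 to 0.74, always above 0. Kcnj10, the gene of the potassium channel Kir4.1 that clears potassium from around neurons, was at 34.5, 37.1 and 39.6 CPM in WT and 41.6, 43.0 and 38.5 CPM in GFAP-IL6. The third GFAP-IL6 mouse fell inside the WT range, and the log2 fold change was 0.15 (SE 0.10, interval -0.06 to 0.36, edgeR adjusted p = 0.757).

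The gap junction genes were not called either. Gja1 encodes connexin 43, the main gap junction protein of astrocytes, and was at 168, 182 and 167 CPM in the WT mice and 213, 182 and 230 CPM in the GFAP-IL6 mice. As for Aqp4, the second mouse of each genotype carried the overlap, while the first and the third GFAP-IL6 mice lay above every WT mouse. The log2 fold change of Gja1 was 0.27 (SE 0.09, interval 0.07 to 0.47, unadjusted p = 0.0116, adjusted p = 0.287 in edgeR). Gjb6, the gene of connexin 30, was at 91.1, 95.5 and 104 CPM in WT and 92.4, 115 and 116 CPM in GFAP-IL6. The first GFAP-IL6 mouse was level with the WT mice, and the log2 fold change was 0.17 (SE 0.10, interval -0.05 to 0.38, edgeR adjusted p = 0.726).

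The metabolic and marker genes held both genes whose genotypes did not overlap. Aldoc encodes aldolase C, the glycolytic aldolase of astrocytes, and was at 1754, 1599 and 1668 CPM in WT and 2001, 1835 and 1827 CPM in GFAP-IL6. All 3 GFAP-IL6 mice lay higher than the 3 WT mice, with a log2 fold change of 0.17 (SE 0.08, interval -0.01 to 0.35, unadjusted p = 0.0572, adjusted p = 0.585 in edgeR) and an exact permutation p of 0.1. Such a separation upwards was seen for 8.43% of all genes tested. Aldh1l1, the gene of a folate enzyme widely used to mark astrocytes, was at 52.2, 51.8 and 56.2 CPM in WT and 47.7, 49.9 and 51.6 CPM in GFAP-IL6. Here every GFAP-IL6 mouse was below every WT mouse, with 51.6 against 51.8 CPM at the nearest pair, and 5.93% of all genes tested were separated in this direction. The log2 fold change of Aldh1l1 was -0.10 (SE 0.09, interval -0.29 to 0.10, edgeR adjusted p = 0.858). S100b, a calcium-binding protein gene used as an astrocyte marker, was at 354, 390 and 381 CPM in WT and 339, 358 and 358 CPM in GFAP-IL6. The first WT mouse lay inside the GFAP-IL6 range, and the log2 fold change was -0.09 (SE 0.08, interval -0.26 to 0.08, edgeR adjusted p = 0.845).

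**Figure D2:**
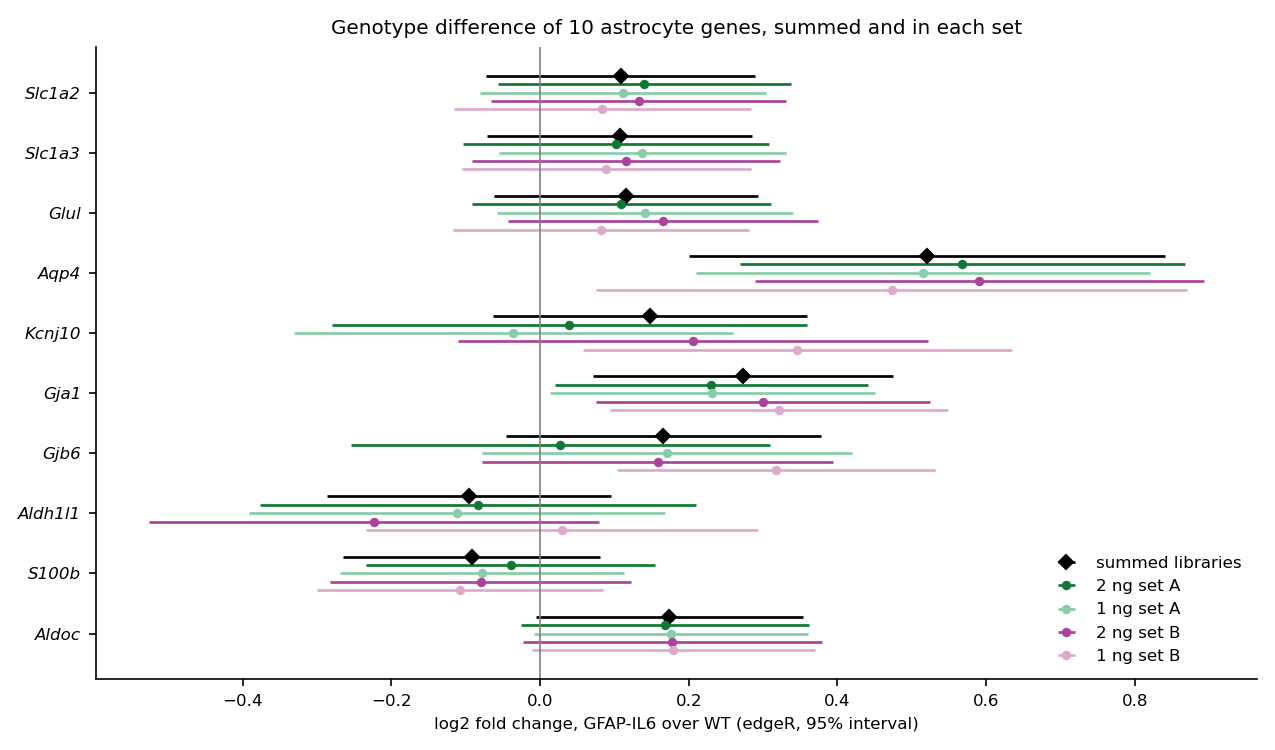
Log2 fold change of GFAP-IL6 over WT from edgeR for each of the 10 genes, with 95% intervals, in the libraries summed per mouse (black) and in each of the 4 sets of 6 libraries (colours). Aqp4 lies at 0.47 to 0.59 in the sets and Gja1 at 0.23 to 0.32, while Kcnj10 and Aldh1l1 lie on both sides of 0.

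The intervals show how large a change could have gone unseen. The 95% interval held 0 for 8 of the 10 genes, with Aqp4 and Gja1 as the exceptions, and lay wholly within 0.5 of 0 on the log2 scale for 9, with Aqp4 as the exception. In this fit, and given each gene's own standard error, a log2 difference of 0.34 (S100b) to 0.62 (Aqp4) would have been needed for a call, since the largest unadjusted p among its called genes was 0.000872. Other tools set other limits.

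Gfap and 2 of the homeostatic genes carry a match to the palindromic STAT motif in the stretch around their start site, shown because interleukin-6 acts through STAT3. The windows are from RefSeq on GRCm38.p6 and run from 250 bases before to 50 bases after the start. The motif searched was TTCNNNGAA, which reads the same on both strands, and 8.3% of the 32851 windows in the table hold it. Windows of 9 of the 10 genes, all but Aqp4, were read, 10 windows in all because Aldoc has 2. Matches were found in the window of Slc1a3 and in the second of Aldoc. The other Aldoc window, nearer the annotated start of the gene, held none. The matches are in capitals and the rest in lower case, 5′ to 3′ on the gene's strand. The first is Gfap, at chr11:102897151-102897450 on the reverse strand, the next Slc1a3, at chr15:8710758-8711057 on the reverse strand, and the last Aldoc, at chr11:78323948-78324247 on the forward strand.
Gfap: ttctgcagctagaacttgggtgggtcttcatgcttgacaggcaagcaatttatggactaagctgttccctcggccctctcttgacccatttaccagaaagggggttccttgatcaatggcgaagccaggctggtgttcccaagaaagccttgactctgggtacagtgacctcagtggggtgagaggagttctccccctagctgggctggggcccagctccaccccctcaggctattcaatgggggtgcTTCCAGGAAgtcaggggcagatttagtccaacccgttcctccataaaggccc
Slc1a3: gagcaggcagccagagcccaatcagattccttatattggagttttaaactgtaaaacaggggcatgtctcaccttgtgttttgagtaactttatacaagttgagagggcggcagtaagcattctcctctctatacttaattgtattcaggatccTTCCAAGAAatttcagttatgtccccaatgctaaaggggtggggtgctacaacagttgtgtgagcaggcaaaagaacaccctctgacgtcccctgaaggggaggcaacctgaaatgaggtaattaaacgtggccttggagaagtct
Aldoc: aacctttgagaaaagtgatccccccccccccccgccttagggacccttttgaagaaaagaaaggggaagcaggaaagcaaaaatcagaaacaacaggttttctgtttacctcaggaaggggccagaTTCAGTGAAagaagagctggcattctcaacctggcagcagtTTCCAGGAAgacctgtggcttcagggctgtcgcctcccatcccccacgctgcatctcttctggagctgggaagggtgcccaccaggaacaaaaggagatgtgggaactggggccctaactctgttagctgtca
The match in Slc1a3 begins 96 bases before the start site, and the match in Gfap begins 2 bases before it. Those in Aldoc begin 124 and 83 bases before the start site of its second window. Gfap and the second Aldoc match have the same letters, TTCCAGGAA. A match is a string of letters and not a measured binding site. Beside these sequences, Gfap rose by 2.44 on the log2 scale, whereas Slc1a3 at 0.11 and Aldoc at 0.17 were not called.

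The 10 genes covered a wide range of levels in both genotypes, and part of their order depended on the scale. The libraries read 3' ends, and the study did not divide by length. By CPM without length, Aldoc was highest at 1781 ± 142 CPM (SD, n = 6 mice), followed by Slc1a2 at 693 ± 42.9 CPM, and neither gene's range over the mice overlapped that of the next gene. S100b at 363 ± 18.7 and Slc1a3 at 316 ± 20.7 CPM overlapped, as did Glul at 242 ± 15.9 and Gja1 at 190 ± 25.6 CPM. Per kilobase of the gene length in the table, Aldoc was again highest at 598 ± 47.6 CPM per kilobase and S100b came next at 245 ± 12.6. Glul, Slc1a3, Gja1, Slc1a2 and Gjb6 followed between 86.8 and 48.6 CPM per kilobase, and in this run each gene's range over the 6 mice overlapped that of the next. Slc1a2 thus lay above S100b and Slc1a3 above Glul by CPM, and the reverse held per kilobase. On both scales Gjb6, Aqp4, Aldh1l1 and Kcnj10 took the last 4 places in that order. Aqp4 at 13.3 ± 3.48 and Aldh1l1 at 12.4 ± 0.67 CPM per kilobase overlapped, with Aqp4 the higher in 4 of 6 mice, and Kcnj10 was lowest at 7.22 ± 0.57.

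Reads of overlapping genes cannot be told apart here, since the strand setting of the counting is not given in the sources used here. Of the 10 genes 4 (Kcnj10, Gja1, Gjb6 and Aldoc) overlap no other gene in GENCODE vM21. The others overlap 9 genes, of which 4, at Aqp4, Slc1a3 and Aldh1l1, have no row in the count table read here and were not analysed. Among the 5 with a row, the most counts relative to the homeostatic gene were at S100b (chr10:76253853-76261159, forward strand), whose last exon lies opposite Dip2a, and Dip2a held 1658 counts over the 24 libraries against 41225 for S100b, or 4.02%. Glul (chr1:153899944-153909723, forward strand) overlaps Teddm2 on the opposite strand, with 198 counts against 27318.

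Within single sets, edgeR called 1 gene of the 10, Aqp4, in 1 of 4 sets. The sets hold the same 6 mice and are not independent. Aqp4 was called higher in the 2 ng libraries of set B (log2 0.59, SE 0.15, edgeR adjusted p = 0.0435), and was at 0.57 (adjusted p = 0.0557) in the 2 ng libraries of set A, 0.51 (adjusted p = 0.121) in the 1 ng libraries of set A and 0.47 (adjusted p = 0.555) in the 1 ng libraries of set B. In that called set the WT mice were at 52.0, 67.9 and 47.0 CPM and the GFAP-IL6 mice at 81.7, 69.9 and 101 CPM, with no overlap, and the 1.08% of all genes called there is the background. Aqp4 was not called in that set with DESeq2, at a log2 difference of 0.59 (adjusted p = 0.0958), or in edgeR with same-numbered mice as a block, at 0.56 (adjusted p = 0.215). The call was also lost without the first or the third mouse of either genotype. In the other sets 0 of the 10 genes were called with edgeR, where 1.03%, 1.1% and 1.08% of all genes were called in the 2 ng set A, 1 ng set A and 1 ng set B libraries. Their counts at an unadjusted p under 0.05 were 2, 2 and 4, and DESeq2 also called 0 in each. Over all genes, DESeq2 called 89 of 12190, 127 of 12407 and 129 of 12974 in these sets. The sign of the difference was the same in all 4 sets for 8 genes. The exceptions were Kcnj10, from -0.04 to 0.35, and Aldh1l1, from -0.22 to 0.03.

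**Figure D3:**
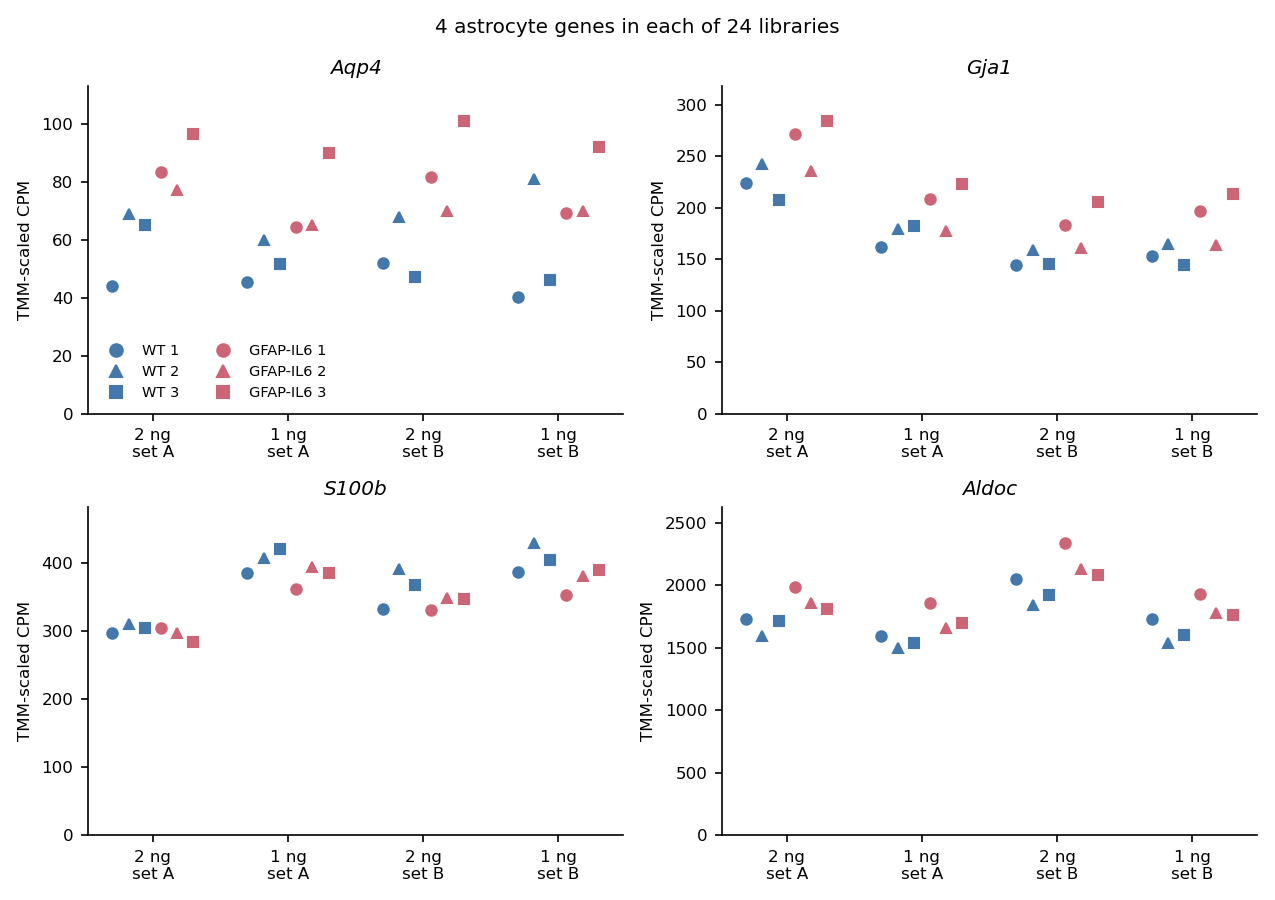
TMM-scaled CPM of Aqp4, Gja1, S100b and Aldoc in each of the 24 libraries, by cDNA amount and set, with 3 WT (blue) and 3 GFAP-IL6 (red) mice in each; linear axes start at 0. Aqp4 differs mainly between mice, whereas Gja1 is highest and S100b lowest in the 2 ng libraries of set A whatever the genotype.

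Some of these genes differed between library preparations by as much as between genotypes. Gja1 was at 208 to 284 CPM (median 239) in the 2 ng libraries of set A, against medians of 181 in the 1 ng libraries of set A, 160 in the 2 ng libraries of set B and 164 in the 1 ng libraries of set B. S100b was at 284 to 310 CPM in the 2 ng libraries of set A, with all 6 below every library of the other sets, whose medians were 391, 349 and 389 CPM. Aldoc was at 1843 to 2342 CPM in the 2 ng libraries of set B, above the medians of 1773, 1626 and 1746 CPM in the other sets. The standard deviation of log2 CPM among the 4 libraries of a mouse was 0.26 for Gja1 and 0.19 for S100b. After the mean of each set was removed, it was 0.05 for both, so the spread within a mouse followed the sets. For Aqp4 it was 0.16 among libraries and 0.15 after removal of the set means, and the spread between mice of a genotype was larger, at 0.27.

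Between cDNA amounts, Aldoc was higher and S100b lower with 2 ng. With sets A and B added, Aldoc was at 1706 to 2132 CPM in the 2 ng sums of the 6 mice and 1526 to 1908 CPM in the 1 ng sums, higher with 2 ng in 6 of 6 mice, with a log2 difference of 0.17 (SE 0.05, edgeR adjusted p = 0.027). S100b was at 313 to 348 CPM with 2 ng and 359 to 422 CPM with 1 ng, with no overlap, a log2 difference of -0.28 (SE 0.05, edgeR adjusted p = 0.000582), against -0.09 between genotypes. The 2 amounts come from the same mice, and with the mouse as a block 7 of the 10 genes were called, against 2 without it. Higher with 2 ng were Slc1a2 (log2 0.09), Slc1a3 (0.06), Aqp4 (0.10), Gja1 (0.19) and Aldoc (0.17), and lower were Glul (-0.09) and S100b (-0.28). With the sets added, Gja1 was higher in 6 of 6 mice and Glul in 0 of 6. By set, however, mean Gja1 was 244.6 CPM with 2 ng and 188.9 with 1 ng in set A, but 166.5 and 172.9 in set B. Likewise mean Slc1a3 was 345.2 and 312.5 CPM in set A, but 303.4 and 310.4 in set B. Their rise with 2 ng was thus seen in the means of set A only. The means of the other called genes kept their direction in both sets. Both counts stand against a high background, with 5.37% of all genes called higher and 6.79% lower without the block, and 14.9% and 17% with it.

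Between the sets, Gja1 was higher in set A. With both amounts added, it was at 191 to 249 CPM in set A and 145 to 211 CPM in set B, higher in set A in each of 6 mice, with a log2 difference of 0.33 (SE 0.07, edgeR adjusted p = 0.00306). Beside it, the difference of Gja1 between genotypes was 0.27. Without the block Gja1 was the only 1 of the 10 called, where 4.89% of all genes were called higher in set A and 1.91% lower. With the mouse as a block 4 were called, Gja1 (0.32) and Slc1a3 (0.09) higher and Aldoc (-0.13) and S100b (-0.12) lower in set A, against a background of 11.2% and 11.4%. Kcnj10, Gjb6 and Aldh1l1 were called in neither of these comparisons. Each amount was prepared only in sets A and B, so neither comparison measures the spread between repeat preparations.

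**Figure D4:**
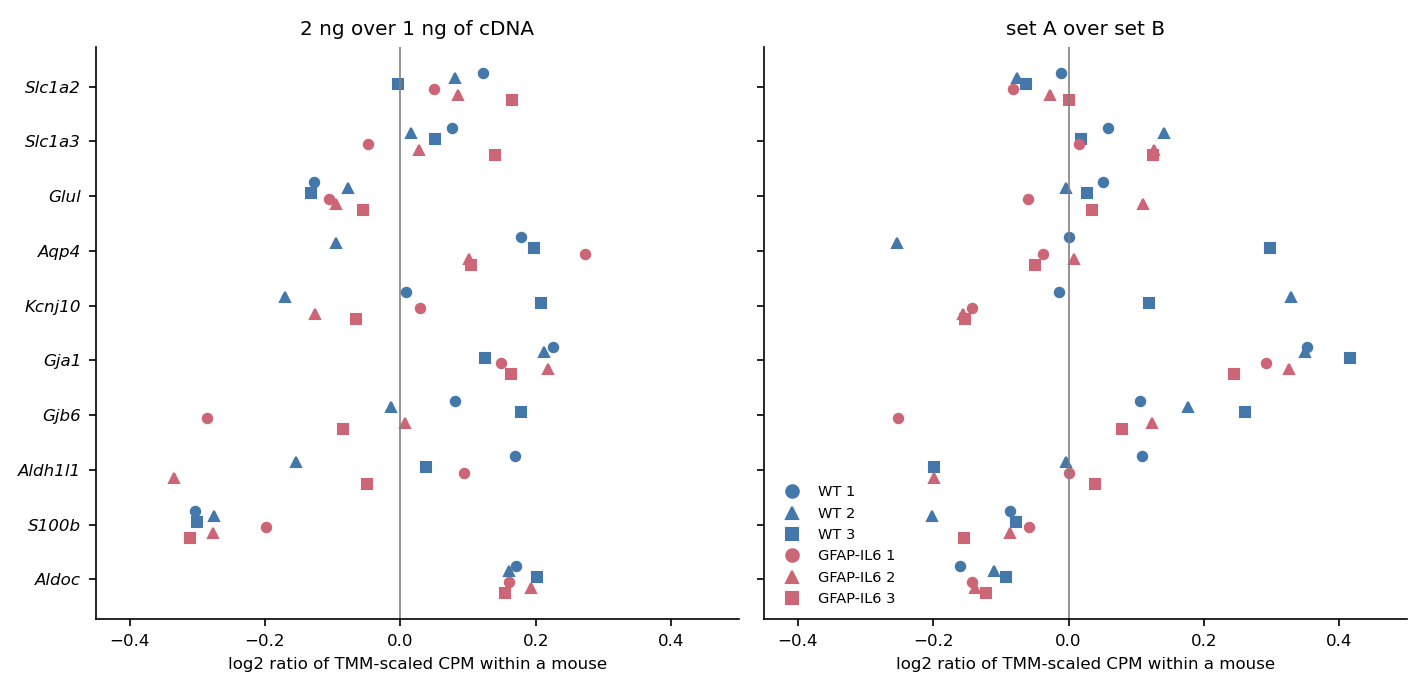
Log2 ratio of TMM-scaled CPM within each of 6 mice, 2 ng over 1 ng of cDNA (left, sets added) and set A over set B (right, amounts added); blue points are WT and red points GFAP-IL6 mice, with 1 symbol for each replicate number. Aldoc and Gja1 lie above 0 and S100b and Glul below 0 in 6 of 6 mice for the amounts, and Gja1 lies at 0.24 to 0.42 for the sets.

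No dependence of the genotype difference on the preparation was called. The test of whether the genotype difference depended on the cDNA amount called 0 of the 10 genes and 0% of all genes in edgeR, with or without the mouse as a block, and 0 with DESeq2. The test of its dependence on the set likewise called 0 of the 10 genes and 0% of all genes, with or without the block, and 0 with DESeq2. At an unadjusted p under 0.05 there were 0 genes in either test without the block, and 1 in each with it. These were Gjb6 for the amounts, with a log2 difference of differences (2 ng minus 1 ng) of -0.15 (interval -0.30 to -0.01), and Kcnj10 for the sets (A minus B), at -0.30 (interval -0.57 to -0.03).

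Among other genes of astrocyte upkeep, 1 was called higher. A list of 48 further genes, all tested, held this 1 called gene, against 1.74% of all genes tested called higher, 4 at an unadjusted p under 0.05 in edgeR, and 27 estimates above 0, with a median of 0.03. DESeq2 also called 1. The called gene was Atp1b2, which encodes a subunit of the sodium pump, at 224, 214 and 218 CPM in WT and 286, 270 and 300 CPM in GFAP-IL6. Every GFAP-IL6 mouse lay above every WT mouse, and the log2 fold change was 0.38 (SE 0.08, edgeR adjusted p = 0.0184). The call was lost without the second WT mouse (adjusted p = 0.141) or the third GFAP-IL6 mouse (adjusted p = 0.155), at log2 0.37 and 0.35. By role, 0 of 7 genes of amino acid and GABA handling were called (median -0.02), 1 of 10 for ions, water and pH (0.07), 0 of 11 for energy and lipid metabolism (-0.01), 0 of 7 receptors (0.04), 0 of 8 secreted and adhesion proteins (0.04) and 0 of 5 transcription factors (-0.05).

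**Figure D5:**
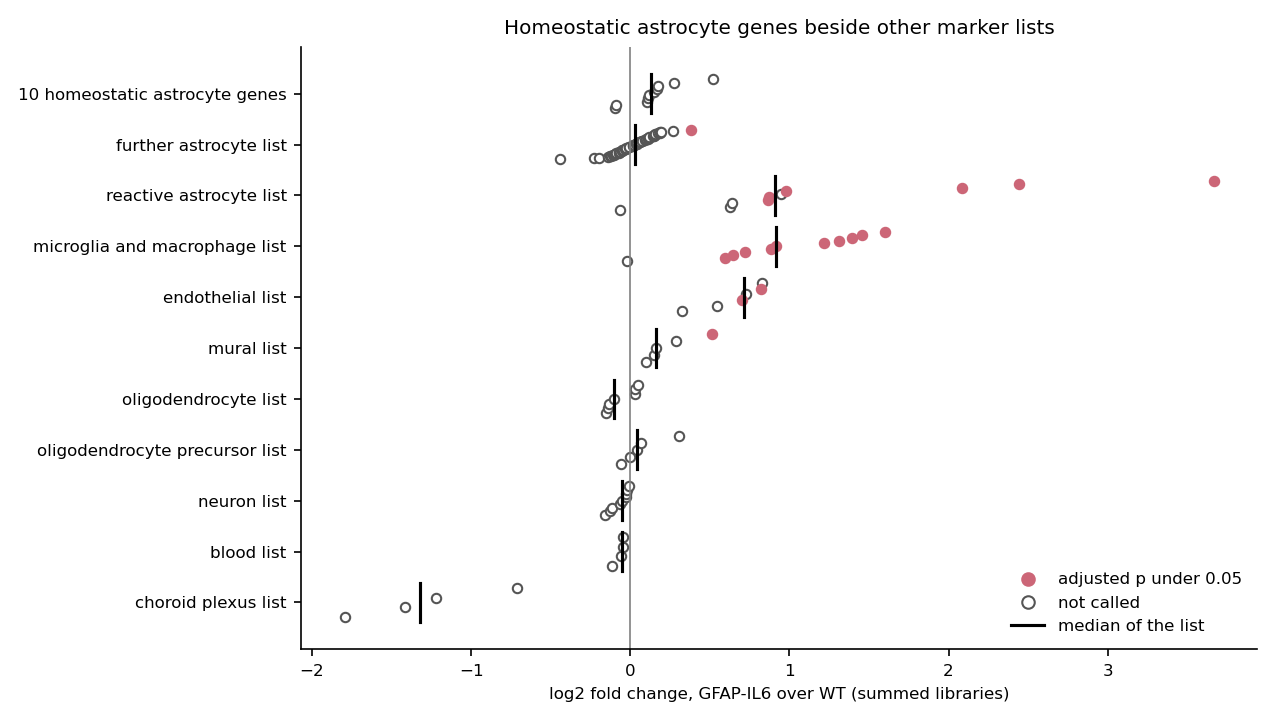
Log2 fold change of GFAP-IL6 over WT in the summed libraries for the tested genes of each list; filled red points were called at an adjusted p under 0.05 in edgeR, open points were not, and black bars give the median of the list. The 10 homeostatic genes have a median of 0.13 with 0 called, the reactive astrocyte list 0.91 with 6 of 10 called and the microglia list 0.92 with 10 of 11 called.

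Markers of reactive astrocytes and of other cells moved in the same mice. These lists too were chosen with earlier results of these data known, so their counts of called genes are descriptions only. Of 12 reactive astrocyte genes 10 were tested and 6 were called higher, with Lcn2 (log2 3.67), Gfap (2.44) and Osmr (2.08), the receptor subunit for oncostatin M, at the top. The summed level of that list was 71.8 to 97.1 CPM in WT and 171 to 282 CPM in GFAP-IL6, and Steap4 and Cxcl10, listed at 0 in 1 WT mouse each, were too low to be tested. Of 11 microglia and macrophage genes 10 were called higher, all but P2ry12, led by Itgam (1.6), C1qb (1.46) and C1qa (1.39), and the list summed to 609 to 663 CPM in WT and 1142 to 1490 CPM in GFAP-IL6. The endothelial list had 2 of 6 called, Ly6c1 (0.82) and Flt1 (0.70), and summed to 116 to 124 against 137 to 226 CPM. The mural list had 1 of 5 called, Rgs5 (0.52), and summed to 141 to 176 against 186 to 217 CPM. With edgeR 0 of 29 genes of the remaining lists were called, and 1 had an unadjusted p under 0.05. The 9 neuron genes summed to 7025 to 7713 CPM in WT and 6575 to 7289 CPM in GFAP-IL6, with Syt1 at -0.16 and Slc17a7 at -0.13 (log2). The 7 oligodendrocyte genes summed to 5720 to 8832 against 5669 to 8505 CPM (Mog -0.15, Mbp -0.14), and the 5 precursor genes to 154 to 217 against 150 to 229 CPM (Olig2 0.30, Pdgfra 0.07). The 4 choroid plexus genes summed to 105 to 4068 against 77.8 to 750 CPM (Ttr -1.79, Folr1 -1.41), and the 4 blood genes to 746 to 1031 against 697 to 951 CPM (Hbb-bs -0.11, Hba-a2 -0.06). The part of these cell types in the estimates for the 10 homeostatic genes was not tested.

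The 10 genes showed little common pattern from library to library in pairwise correlations. After centring within genotype and set, the correlation of log2 CPM over the 24 libraries between any pair of the 10 (45 pairs) ran from -0.73 to 0.71, with a median of 0.05. Slc1a2 followed the mean of the other 9 most closely (Pearson's r = 0.48), and Aldoc ran against it (r = -0.58). The genes outside the list most like the mean of the 10 were Gnaq (r = 0.89), Calm3 (0.88), Adrb1 (0.86), Acbd5 (0.85) and Mal (0.84), out of 8973 genes with a mean of at least 10 CPM. These are descriptions over 24 libraries of 6 mice, which share RNA, depth and the scaling of each library. The outside genes named are the highest of those compared, so a high r follows from that choice. Counting noise, larger for genes with few counts, was not separated from these correlations.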

How the data were processed

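Frontal cortex RNA, isolated with Trizol and column-cleaned, gave 24 3'Pool-seq libraries of 6 mice. After removal of polyA stretches, the authors aligned reads to mm10 using STAR 2.4 (the submitters' processing notes name hg19 as the only build), and counted unique alignments on GENCODE vM6 genes with featureCounts. The values deposited are raw counts for each gene in each library, without normalization. The strand setting of the counting is not given in the sources used here. The deposited counts were summed per mouse, per mouse and cDNA amount, or per mouse and set, and groups were taken from the labels.

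The genotype test was that of edgeR 4.0.16 under R 4.3.3 (TMM, filterByExpr, quasi-likelihood test, adjusted p under 0.05), with genotype as a term for the amount and set contrasts. The labels number 3 mice of each genotype, and p-values of the edgeR and DESeq2 genotype tests measure the spread between them. Without the block, the tests of amounts and sets count the sums of a mouse as separate samples. With the mouse as a block they measure the spread within mice. In 3'Pool-seq, samples are pooled before tagmentation, and whether the mice of a set shared a pool is not given. The mice are therefore not repeats of a preparation in the tests of amounts and sets. For limma-voom the libraries entered singly, with 1 within-mouse correlation shared by all genes. PCR copies were not marked by molecular identifiers, so counted reads are not independent molecules. The samples of the amounts and sets are paired because they come from the same mouse: the deviations of the paired sums from their group means correlated at 0.26 to 0.38 for the amounts and at 0.10 to 0.24 for the sets. Alternatives were DESeq2 1.42.0, limma 3.58.1 (voom, mouse as random block), other scalings and filters, blocks and leaving out each mouse. The tests were tried on simulated counts, with changes set in genes of at least 10 CPM. There the edgeR genotype test recovered 30% of 1.25-fold and 86% of 1.5-fold changes, and 1.86% of its calls were false. The test of amounts recovered 42% and 98%, and 7.61% of its calls were false. The sums of a mouse were drawn independently, so the pairing was not part of the simulation. Each simulated gene had the spread typical of genes at its level and not its own. The recovery therefore does not hold for a gene that varies more than that. Positions are from GENCODE vM21 on mm10.

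The 10 genes and all other lists were chosen with earlier results of these data known. All 10 are named. From each other list, up to 3 called genes are named by size of the fold change, or the 2 with the largest where none was called; Il6 and Gfap check the genotype, and the 5 genes most correlated with the mean of the 10 are also named. Genes outside this rule are named only where they overlap one of the 10 or as exceptions to a count, after their values were seen. A result of the further astrocyte list is not reported here.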

Additional observations from a re-analysis of the deposited data

How the results depend on the processing

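The direction of each of the 10 homeostatic genes between genotypes was the same under all 15 alternatives, from 0.06 to 0.17 for Slc1a2, 0.05 to 0.16 for Slc1a3, 0.07 to 0.15 for Glul, 0.37 to 0.74 for Aqp4, 0.10 to 0.20 for Kcnj10, 0.19 to 0.36 for Gja1, 0.11 to 0.26 for Gjb6, -0.13 to -0.06 for Aldh1l1, -0.13 to -0.06 for S100b and 0.13 to 0.21 for Aldoc (log2). In the summed libraries the number called, 0, became 1 with DESeq2 or without a filter on low counts and 4 with limma-voom. It ran from 0 to 1 when each mouse was left out. Over all genes, 462 of 20629 were called without a filter. Leaving out a mouse gave 146 to 321 calls among 14854 to 15050 genes. Within sets, without a filter 1 gene was called in the 2 ng set A, 1 ng set A and 1 ng set B libraries in place of 0. Over all genes, 199 of 18752, 214 of 18677 and 228 of 19056 were called there. Leaving out each mouse gave 0 to 1 in the 2 ng set A, 2 ng set B and 1 ng set B libraries and 0 to 0 in the 1 ng set A libraries. Those fits called 54 to 169 genes among 12323 to 13339 tested. The 1 call in the 2 ng set B libraries became 0 with DESeq2, which called 94 of 12233 genes there. Between amounts, 2 calls became 1 to 2 when each mouse was left out, and between sets 1 remained 1. Over all genes, these fits called 1124 to 1773 between amounts and 567 to 1086 between sets. Of the further astrocyte genes 2 were called without a filter, 1 higher and 1 lower, and 0 to 1 when each mouse was left out. The cause of these moves was not tested.

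The labels give no link between the same-numbered mice of both genotypes beyond the number. Their deviations correlated at -0.05, -0.03 and -0.03. With 3 mice per genotype, these values do not show whether such mice were linked in another way. With this number as a replicate block, 215 genes were called in place of 263, 0 of the 10 in the summed libraries and 0 in place of 1 in the 2 ng set B libraries. With the mouse as replicate block, 7 of the 10 were called between amounts and 4 between sets, as given above.

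Among markers of other cells, estimates near 0 or led by 1 mouse changed sign when a mouse was left out: Mog from -0.33 to 0.0073, Pdgfra from -0.12 to 0.21, Ttr from -2.53 to 1.69, Folr1 from -1.91 to 0.16, Hbb-bs from -0.29 to 0.057 and Hba-a2 from -0.19 to 0.085. Ttr was also at 0.50 with the replicate block. Ttr was highest in the third WT mouse, and without it the values were 1.69 for Ttr and 0.16 for Folr1.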
